A study of Mus musculus with 6 samples.

Results

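The G protein-coupled receptors that carry Gpr symbols, most of them named as orphans before a ligand was proposed, were compared between VMHpvlm and VMHpvll, a pair of areas in the ventrolateral part of the ventromedial hypothalamus that the study captured separately. The members were all rows of the expression table whose symbol is Gpr followed only by digits, apart from Gpr17 and Gpr34. This rule gave 67 genes of 47480 in the table, and it used no measured value. All 67 are annotated as protein-coding.

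Tissue came from female mice that carried VgluT2-cre and the Ai6 reporter in every group. The cre is driven by the gene for a vesicular glutamate transporter and turns on a green fluorescent protein in cells with a history of its expression. Both regions were cut by laser capture from frozen coronal sections, and total RNA was sequenced with a stranded kit. There were 3 libraries per region, whose titles pair them under the names F19, F20 and KH_161103. The labels give neither the age of the mice nor the number of animals behind a library or behind a shared name. The p-values therefore measure the spread between these libraries, which may be technical.

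G protein-coupled receptors cross the membrane with a bundle of helices and act on G proteins, which raise or lower second messengers such as cAMP. An orphan receptor is one whose natural ligand is not established, and some orphans signal without any added ligand. The hypothalamus uses many such receptors to read peptides, lipids and ions, and the Gpr symbols also cover proteins of intracellular membranes that are not classical receptors.

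Depth ran from 7157831 to 11293159 recovered reads per library, of which the top gene, Gm42418, held 11.6% to 17.9%. The captured areas were told apart by Nr5a1, a transcription factor of the ventromedial nucleus (308 ± 19.5 in VMHpvlm against 31.5 ± 6.73 in VMHpvll), and by the oestrogen receptor Esr1 (513 ± 74.0 against 1490 ± 63.8). These values are normalised read counts, meaning reads divided by 1 scaling factor per library, as mean ± SD of 3 libraries, and the same unit is used below unless another is named. The table mixes all cells of the captured tissue, so fewer cells of a type and less RNA per cell cannot be told apart.

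Of the 67 genes, 39 reached a mean value of 10 across the libraries and were tested, and 12 of them differed between the regions. Among them, VMHpvlm had more Gpr149, Gpr12, Gpr22, Gpr85 and Gpr158, and VMHpvll had more Gpr6, Gpr161, Gpr173, Gpr83 and Gpr37. Gpr6 and Gpr149 exceeded 2-fold, while 8 of the 12 were under 1.5-fold. A gene was called when the Benjamini-Hochberg adjusted p from limma, taken over all tested genes with the pair name in the model, was below 0.05. The 12 calls are 30.8% of the tested members, beside 20% of all 14522 tested genes. By direction the shares were 17.9% toward VMHpvlm (7 genes, 10.5% of all tested genes) and 12.8% toward VMHpvll (5 genes, 9.48%). These shares of all tested genes are the background for every count of calls below, in groups of members and in other lists. The median difference of the tested members was 0.03 on the log2(value + 1) scale, beside 0.00247 for all tested genes, and the median absolute difference was 0.17 beside 0.15.

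The number of calls differed between fits. With limma's eBayes without trend and robust 3 of the 12 were called (Gpr149, Gpr6 and Gpr161), with DESeq2 on recovered whole reads 5 (among them Gpr149, Gpr6, Gpr83 and Gpr158), and with edgeR all 12. Among those not called by DESeq2 were Gpr12, Gpr22, Gpr37, Gpr85, Gpr161 and Gpr173. When each pair was left out in turn, 7 of the 12 were called every time.

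In each of the 12 called genes the ranges of the regions did not overlap and all 3 pairs had the same sign. The ranges also did not overlap in 3 uncalled genes, Gpr101, Gpr135 and Gpr139, so 15 of 39 tested members (38.5%) had separate ranges, beside 28.0% of all tested genes. Of the 15, 9 were higher in VMHpvlm (14.5% of all tested genes) and 6 in VMHpvll (13.5%).

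**Figure D1:**
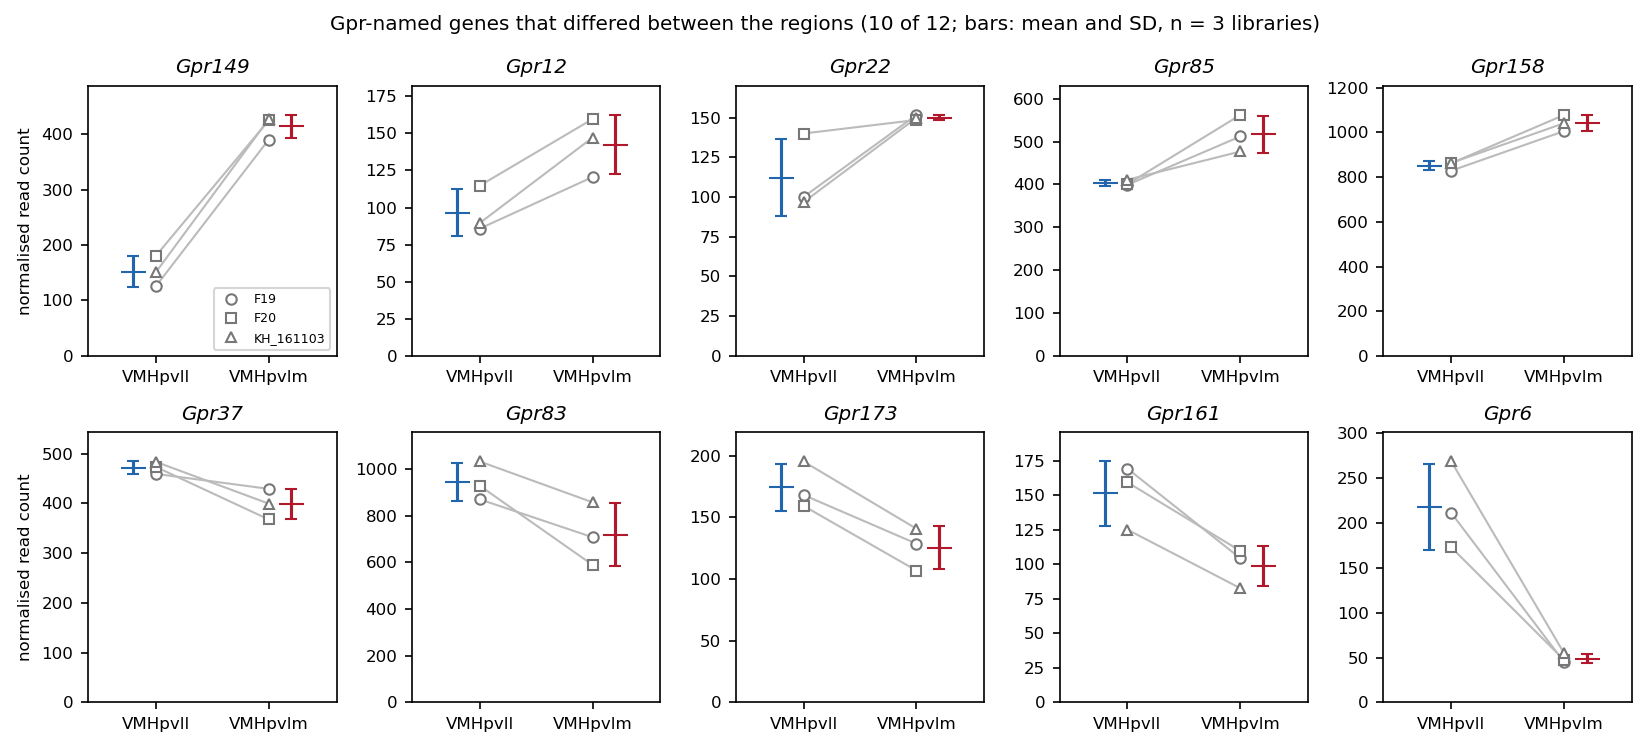
Normalised read count (linear axes from 0) of 10 of the 12 called genes in each library, with lines joining libraries of 1 pair and coloured markers for each region's mean with its SD (n = 3). Gpr149 sits between 390 and 427 in VMHpvlm and between 125 and 180 in VMHpvll, and Gpr6 shows the opposite order.

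Members that moved were set beside their promoters where a window was available, which was not so for Gpr149. RefSeq windows of 300 bases on GRCm38.p6, the assembly behind mm10, from 250 bases before to 50 after each start, were found for 49 of the 67 genes. A gene can have several windows, and these 49 genes have 65. Gpr6 and Gpr12 are shown because these relatives differed in opposite directions, and Gpr161 because its window holds a match to the site of Nr5a1. Capitals mark a motif match, and sequences run 5′ to 3′ on the strand of the gene, at chr10:41072241-41072540, minus strand (Gpr6), chr5:146585190-146585489, minus strand (Gpr12) and chr1:165295516-165295815, plus strand (Gpr161). Gpr12 and Gpr161 each have 1 more window, neither with a match.
Gpr6: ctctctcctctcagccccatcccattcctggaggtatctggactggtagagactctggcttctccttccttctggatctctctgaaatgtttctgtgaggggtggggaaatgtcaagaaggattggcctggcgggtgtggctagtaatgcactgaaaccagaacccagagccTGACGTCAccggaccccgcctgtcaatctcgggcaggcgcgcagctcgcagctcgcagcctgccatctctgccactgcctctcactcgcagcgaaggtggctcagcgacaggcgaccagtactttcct
Gpr12: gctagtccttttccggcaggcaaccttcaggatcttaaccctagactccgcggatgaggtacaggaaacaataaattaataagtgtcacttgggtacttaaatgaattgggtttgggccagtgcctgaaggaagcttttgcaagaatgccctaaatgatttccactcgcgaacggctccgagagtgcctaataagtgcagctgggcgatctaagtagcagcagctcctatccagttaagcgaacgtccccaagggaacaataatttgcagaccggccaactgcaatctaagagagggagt
Gpr161: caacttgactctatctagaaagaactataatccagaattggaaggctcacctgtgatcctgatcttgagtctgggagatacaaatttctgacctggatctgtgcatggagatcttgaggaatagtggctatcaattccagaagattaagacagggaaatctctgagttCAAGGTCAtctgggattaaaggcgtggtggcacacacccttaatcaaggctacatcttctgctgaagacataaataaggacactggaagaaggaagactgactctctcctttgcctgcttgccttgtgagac
Letters were searched on both strands. The palindromic cAMP response element TGACGTCA was found in 1 of the 65 member windows, that of Gpr6, where it begins 78 bases before the start. It was found in 1.79% of all 32851 promoter windows. The Nr5a1 site CAAGGTCA was found in 2 of the 65 member windows and in 1.56% of all windows. The member windows were those of Gpr161, 82 bases before the start, and of Gpr132, which was not tested. Expression of Gpr161 was higher in VMHpvll and that of Nr5a1 in VMHpvlm, and a link between them was not tested. The oestrogen receptor palindrome, GGTCA and TGACC with 3 bases between, was found in 0 of the 65 member windows and in 0.0700% of all windows. The motifs share letters (GGTCA stands in the Nr5a1 site too), and a match describes letters only.

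Gpr3, Gpr6 and Gpr12 form a family that couples to Gs and raises cAMP without an added ligand. By limma its measurable members differed in opposite directions. Gpr6, known from striatal neurons, was read at 211, 173 and 268 in VMHpvll (F19, F20 and KH_161103) and at 44.7, 47.2 and 54.5 in VMHpvlm. Every VMHpvll library was above every VMHpvlm library by a wide gap. The means were 217 ± 48.1 and 48.8 ± 5.09, a 4.46-fold difference (limma log2 difference -2.11 ± 0.15 SE, adjusted p = 4.13e-15). Gpr12, a brain receptor of the same family, was read at 121, 160 and 147 in VMHpvlm and at 85.7, 115 and 89.5 in VMHpvll. The F20 library was the highest of its region in both, and the ranges did not overlap. Gpr12 was 1.47-fold higher in VMHpvlm (log2 difference 0.56 ± 0.14 SE, limma adjusted p = 0.00283), and without the KH_161103 pair the adjusted p was 0.0803. With DESeq2 the adjusted p of Gpr12 was 0.134. Gpr3 had 30 reads over the 6 libraries and was not tested.

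The ratio of Gpr12 to Gpr6 within a library does not depend on how libraries are scaled. It was 2.70, 3.38 and 2.70 in VMHpvlm and 0.406, 0.664 and 0.333 in VMHpvll, so Gpr12 had the higher count in VMHpvlm and Gpr6 in VMHpvll in every library. The direction of this ratio follows from the calls of both genes, so it is a description and no test of it is given. Per kilobase of exon, Gpr6 was the 4th of the 39 tested members in VMHpvll (122 ± 27.0) and the 24th in VMHpvlm (27.3 ± 2.85). Its SD in VMHpvll spans the means of the next members, down to the 10th, Gpr85 (98.8 ± 1.57).

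Markers of GABAergic neurons moved in the same direction as Gpr6. All 6 tested of 8 listed markers were higher in VMHpvll, their summed level ran from 2110 to 2460 in VMHpvll and from 843 to 1103 in VMHpvlm. Of the listed markers only Dlx6 was at 0 in a library (VMHpvlm F20), and it had 79 reads in all. Their part in the difference of Gpr6 was not tested.

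The SREB family, Gpr27, Gpr85 and Gpr173, is a trio of strongly conserved brain receptors without an established ligand, and by limma it was likewise divided. Gpr85 was read at 512, 562 and 477 in VMHpvlm and at 399, 401 and 411 in VMHpvll, where the libraries lay close together. It was 1.28-fold higher in VMHpvlm (log2 difference 0.35 ± 0.08 SE, limma adjusted p = 0.000527). The adjusted p of Gpr85 was 0.0637 with DESeq2 and 0.125 with limma's eBayes without trend and robust. Gpr173 was read at 129, 107 and 141 in VMHpvlm and at 168, 159 and 195 in VMHpvll. It was 1.39-fold higher in VMHpvll (log2 difference -0.48 ± 0.13 SE, limma adjusted p = 0.00454), and without the KH_161103 pair the adjusted p was 0.0578. The adjusted p of Gpr173 was 0.160 with DESeq2 and 0.0700 with limma's eBayes without trend and robust. Exons of Gpr173 overlap 3010001F23Rik on the opposite strand, and the labels do not say whether counting used strand. Gpr27 was not called, at 206 ± 7.21 in VMHpvlm and 199 ± 23.5 in VMHpvll.

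The ratio of Gpr85 to Gpr173 was 3.98, 5.26 and 3.39 in VMHpvlm and 2.37, 2.51 and 2.10 in VMHpvll, with no overlap, which likewise follows from both calls. The ratio of Gpr27 to Gpr173 was also without overlap, at 1.67 ± 0.29 in VMHpvlm and 1.15 ± 0.19 in VMHpvll, and so was that of Gpr85 to Gpr27, at 2.50 ± 0.14 and 2.05 ± 0.24.

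**Figure D2:**
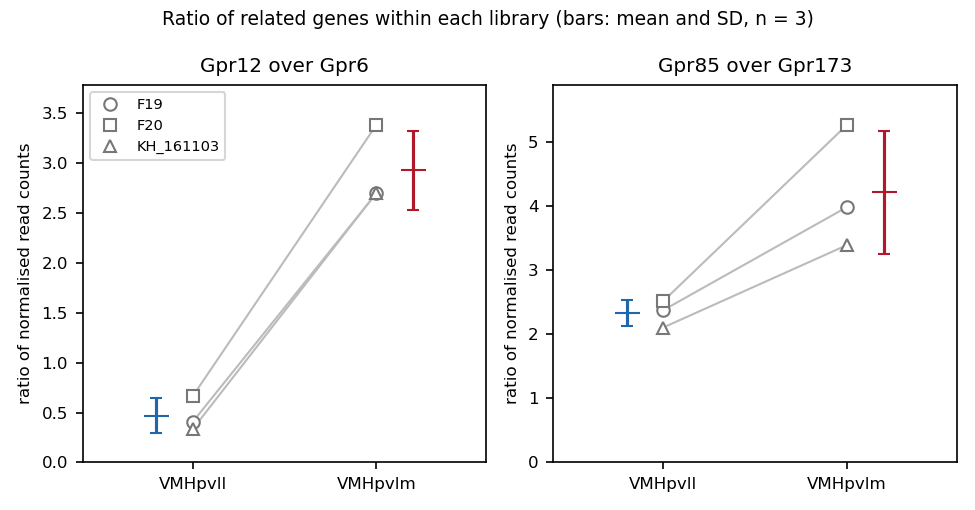
Ratio of the normalised read counts of Gpr12 to Gpr6 (left) and of Gpr85 to Gpr173 (right) in each library, with lines joining pairs and coloured markers for each region's mean with its SD (n = 3). Both ratios are higher in VMHpvlm in each pair, at 2.70 to 3.38 against 0.333 to 0.664 for Gpr12 to Gpr6.

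A list of rhodopsin-like receptors taken as mainly neuronal held 21 members, whose cell types were not checked here. Of these, 18 were tested, 4 were higher in VMHpvlm (among them Gpr149 and Gpr22) and 1 in VMHpvll (Gpr161). Of all tested genes 10.5% were called toward VMHpvlm and 9.48% toward VMHpvll. Gpr149, an orphan receptor also studied in the oocyte, was read at 390, 425 and 427 in VMHpvlm and at 125, 180 and 151 in VMHpvll. The lowest VMHpvlm library was far above the highest VMHpvll library. Gpr149 was 2.72-fold higher in VMHpvlm (log2 difference 1.45 ± 0.10 SE, limma adjusted p = 2.22e-15), and its pair differences were 1.63, 1.23 and 1.497 (log2). Per kilobase of exon it was the 10th tested member in VMHpvlm (96.5 ± 4.82) and the 20th in VMHpvll (35.5 ± 6.41). On mm10, Gpr149 lies on chromosome 3 from 62529077 to 62605140, and its exons overlap no other annotated gene.

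Gpr22 was read at 152, 149 and 150 in VMHpvlm and at 100.03, 140 and 96.8 in VMHpvll. The F20 library of VMHpvll lay close to VMHpvlm, and its pair differed by only 0.08 (log2). Gpr22 was 1.34-fold higher in VMHpvlm (log2 difference 0.44 ± 0.14 SE, limma adjusted p = 0.0200), and the adjusted p was 0.163 without the F19 pair and 0.244 without the KH_161103 pair.

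Gpr161, a receptor of the primary cilium that holds back hedgehog signalling through cAMP, went the other way. It was read at 169, 159 and 125 in VMHpvll and at 104, 110 and 82.7 in VMHpvlm, and the KH_161103 library was the lowest in both regions. Gpr161 was 1.53-fold higher in VMHpvll (log2 difference -0.61 ± 0.14 SE, limma adjusted p = 0.000841), with pair differences of -0.69, -0.54 and -0.59. With DESeq2 its adjusted p was 0.0651.

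Gpr101, a Gs-coupled receptor linked to growth hormone excess in people, had separate ranges without a call. It was read at 660, 888 and 634 in VMHpvlm and at 603, 490 and 530 in VMHpvll. The F20 library stood apart in VMHpvlm, and the pair differences were 0.13, 0.86 and 0.26 (log2 difference 0.41 ± 0.15 SE, limma adjusted p = 0.127). Gpr101 was called in 3 of the 13 alternative fits, with an adjusted p of 0.00121 by edgeR on recovered whole reads, 3.47e-07 by limma without the filter on low genes and 1.35e-09 by limma without the F19 pair. In the other 10 the adjusted p ran from 0.0503 to 0.423 (DESeq2), and without the F20 pair the log2 difference was 0.19 (limma adjusted p = 0.0638). Gpr165, the member with the highest level, was read at 1900, 1914 and 2021 in VMHpvlm and at 1489, 1823 and 2024 in VMHpvll. Its regions overlapped, with the F19 library of VMHpvll the lowest, and the limma adjusted p was 0.0533 (log2 difference 0.14 ± 0.05 SE). It was 0.800 without the F19 pair, 0.00804 without F20 and 0.0359 without KH_161103. With no filter it was 0.0340, with a mean of at least 50 0.0344, with equal totals 0.0204 and with equal upper quartiles 0.0423. Pseudocounts of 0.5 and 5 gave 0.0543 and 0.0513, and limma without the pair term gave 0.427. The adjusted p was 0.475 with limma's eBayes without trend and robust, 0.0949 by edgeR and 0.480 by DESeq2.

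Gpr26, a receptor active without an added ligand, was close to even at 1213 ± 94.8 in VMHpvlm and 1237 ± 102 in VMHpvll (log2 difference -0.03 ± 0.05 SE, limma adjusted p = 0.785). Without the KH_161103 pair that difference was 0.02. Gpr63, at 10.7 ± 4.13 and 15.8 ± 1.06, came after Gpr6 and Gpr161 in the size of its difference toward VMHpvll but was not called (log2 difference -0.58 ± 0.40 SE, limma adjusted p = 0.359). The remaining tested receptors of this group were Gpr19, Gpr21, Gpr45, Gpr61, Gpr62, Gpr135, Gpr153, Gpr162 and Gpr176. Gpr135 had separate ranges, at 77.2, 88.8 and 88.1 in VMHpvlm and 48.4, 69.995 and 73.9 in VMHpvll (log2 difference 0.42 ± 0.18 SE, limma adjusted p = 0.0951). None of these was called, and their means over 6 libraries ran from 27.7 (Gpr21) to 398 (Gpr162).

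Of the members with relatives in class C, the class of the metabotropic glutamate and GABA-B receptors, Gpr158 was higher in VMHpvlm. Gpr158 binds a complex of Rgs7 and Gnb5 at the membrane and has been proposed as a receptor for glycine. It was read at 1006, 1079 and 1042 in VMHpvlm and at 829, 862 and 864 in VMHpvll. Libraries of each region lay close together, and the pair differences were 0.28, 0.32 and 0.27 (log2 difference 0.29 ± 0.06 SE, 1.22-fold, limma adjusted p = 9.60e-05). Exons of Gpr158 overlap Gm13327 on the opposite strand. Its relative Gpr179, known from the retina, was not called, at 45.5 ± 8.22 and 43.2 ± 11.5. The Gpr158 partners Rgs7 and Gnb5 were not called (limma adjusted p = 0.628 and 0.214).

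The list of members with a proposed or accepted peptide, lipid, ion or metabolite ligand held 15 genes and may not be complete. Of these, 4 were tested and 2, Gpr83 and Gpr37, were higher in VMHpvll. Of all tested genes 9.48% were called in that direction. Gpr83, a proposed receptor for the peptide PEN that is cut from the Pcsk1n product, was read at 870, 928 and 1032 in VMHpvll and at 707, 589 and 856 in VMHpvlm. KH_161103 was the highest library of both regions, and in VMHpvlm it came close to the lowest library of VMHpvll without reaching it. The difference was 1.31-fold (log2 difference -0.41 ± 0.07 SE, limma adjusted p = 5.54e-06), and without the pair term the adjusted p was 0.0637. Pcsk1n was higher in the other region, at 4070 ± 209 in VMHpvlm and 3500 ± 478 in VMHpvll (limma adjusted p = 7.04e-05, and 0.110 without the pair term).

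Gpr37, a proposed prosaposin receptor found in myelinating oligodendrocytes, was read at 459, 474 and 484 in VMHpvll and at 429, 368 and 400 in VMHpvlm. Its difference was the smallest of the called members, 1.18-fold (log2 difference -0.25 ± 0.08 SE, limma adjusted p = 0.0211). The adjusted p of Gpr37 was 0.134 without the F20 pair and 0.174 without the KH_161103 pair. Oligodendrocyte markers moved with it: 10 of 12 were higher in VMHpvll and 0 in VMHpvlm, with a summed level of 16405 to 17658 against 12146 to 13942 and no marker at 0 in any library. Oligodendrocyte precursor markers (6 of 7 higher in VMHpvll and 0 lower, summed level 2290 to 2391 against 1777 to 2004) and astrocyte markers (6 of 12 higher and 0 lower, 38984 to 44216 against 33189 to 35723) had the same direction. The part of these cells in the difference of Gpr37 was not tested. Psap, the gene of prosaposin, was higher in VMHpvlm (7546 ± 350 against 6431 ± 200, limma adjusted p = 1.74e-07). Gpr75 and Gpr139, a receptor that responds to aromatic amino acids, were not called, at 77.7 ± 9.09 and 52.6 ± 2.18 in VMHpvlm against 71.6 ± 15.3 and 62.0 ± 10.8 in VMHpvll.

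**Figure D3:**
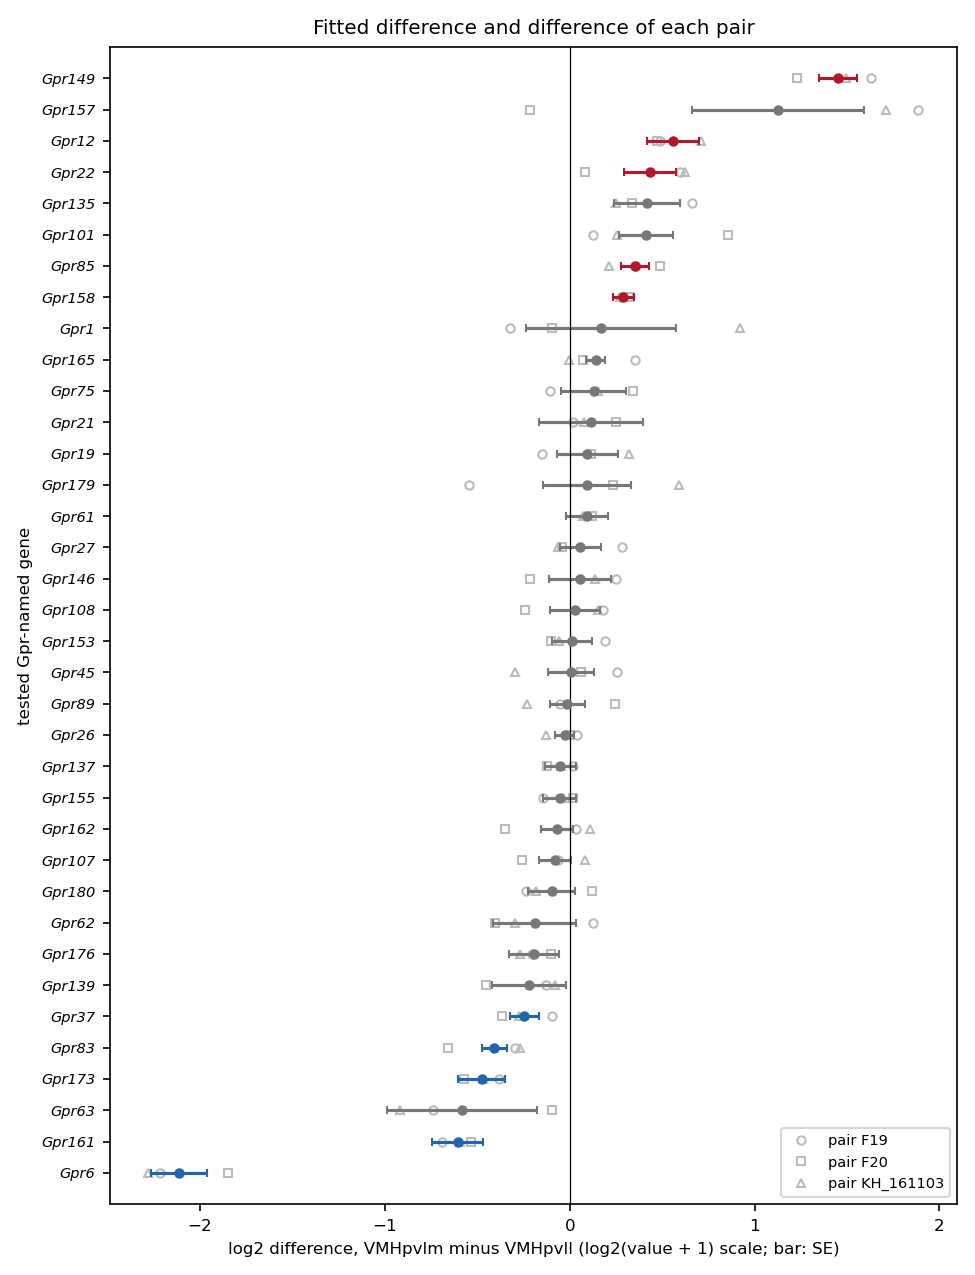
Fitted log2 difference (VMHpvlm minus VMHpvll) of 36 of the 39 tested genes with its SE, coloured red or blue where called toward VMHpvlm or VMHpvll and grey where not called, beside the difference of each pair as open symbols. Gpr149 at 1.45 and Gpr6 at -2.11 are the largest differences of their direction.

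No call was made among the intracellular or atypical proteins. Of 8 members, 7 were tested, among them Gpr107 and Gpr108 of the Golgi, Gpr89, which regulates Golgi pH, and Gpr137 and Gpr155 of the lysosome. Apart from Gpr157, their absolute log2 differences stayed within 0.10 (Gpr180, at 141 ± 20.2 and 150 ± 1.23). Gpr157 was read at 14.9, 15.3 and 17.3 in VMHpvlm and at 3.30, 17.9 and 4.57 in VMHpvll, so the F20 pair went against the others. It passed the filter mainly through VMHpvlm, and with 61 reads in all it was not called (log2 difference 1.13 ± 0.46 SE, limma adjusted p = 0.0838), and without the F20 pair the difference was 1.80 (limma adjusted p = 0.0178), while without the F19 pair it was 0.75 (limma adjusted p = 0.390). Gpr146 and Gpr1, which were not placed on any of these lists, were not called either.

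Levels between genes were compared per kilobase of exon. In both regions Gpr165 was the highest (428 ± 14.5 in VMHpvlm and 391 ± 59.4 in VMHpvll), and Gpr83 was the 3rd (141 ± 26.4 and 185 ± 16.1). In VMHpvlm, Gpr101 (134 ± 25.9), Gpr158 (128 ± 4.42) and Gpr85 (127 ± 10.5) came next and were not separated from Gpr83 beyond its SD. From the 5th to the 9th place in VMHpvll, Gpr137, Gpr26, Gpr162, Gpr158 and Gpr101 lay between 114 ± 8.14 and 100.1 ± 10.6 and were not separated beyond their spread. The 4th, Gpr6 (122 ± 27.0), was not separated from them beyond its SD either. All 67 members together held between 1037 and 1194 RPM (reads scaled to a common library depth). The depth includes Gm42418, which held 17.9% of reads in the lowest library (VMHpvll F19) and 11.6% in the highest (VMHpvlm F20).

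**Figure D4:**
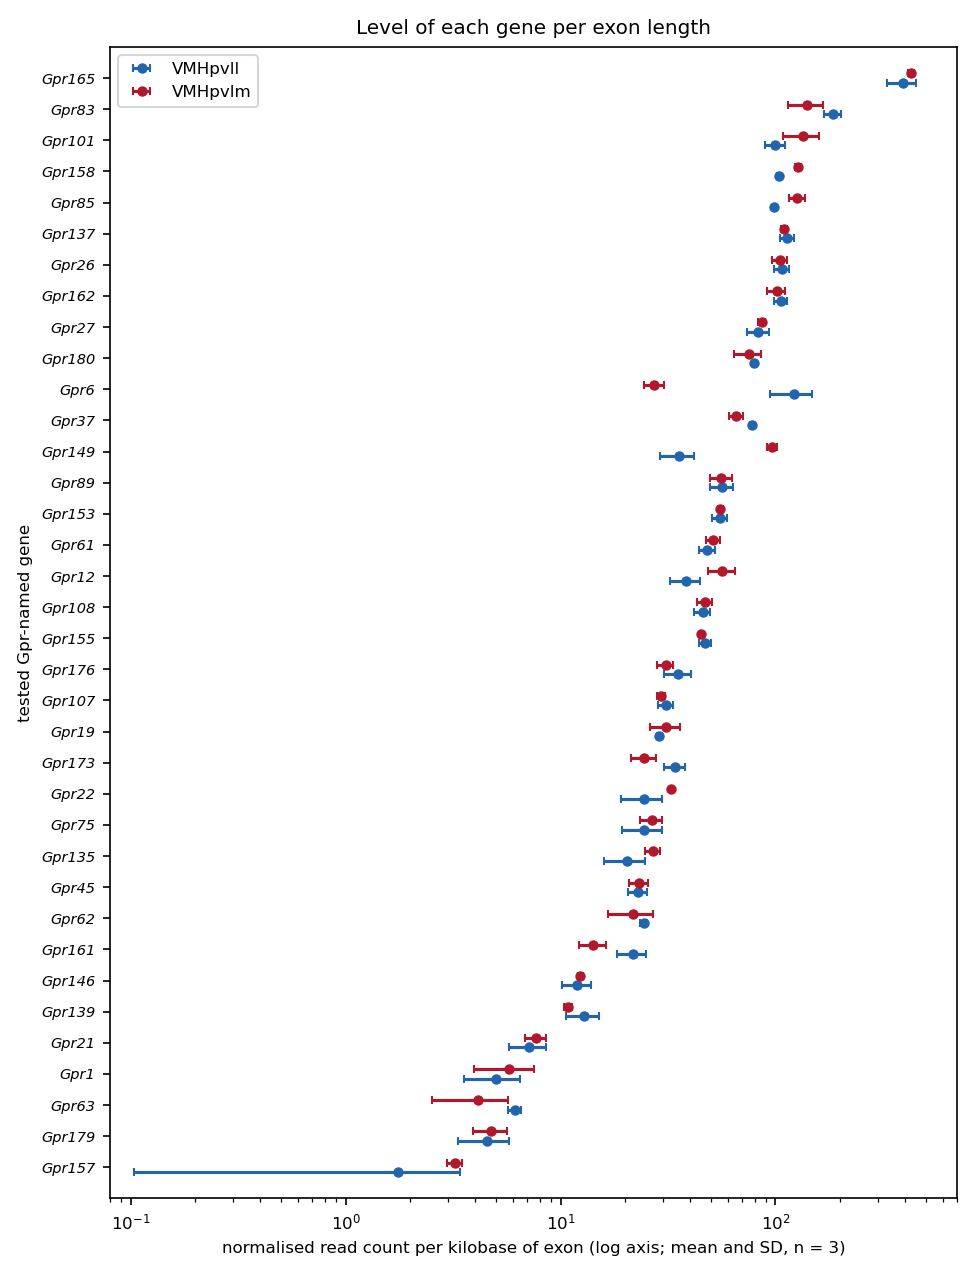
Normalised read count per kilobase of exon (log axis) of 36 of the 39 tested genes, as mean and SD of 3 libraries, in VMHpvlm (red) and VMHpvll (blue). Gpr165 leads in both regions, while Gpr6 moves from 122 in VMHpvll to 27.3 in VMHpvlm and Gpr149 from 35.5 to 96.5.

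The other 28 members were below the filter. The highest of them included Gpr4 of the vascular endothelium (mean 8.84), Gpr50, a relative of the melatonin receptors (8.76) and the oxysterol receptor Gpr183 of immune cells (6.68), beside a mean of 12.2 for Gpr157, a tested member with few reads. Gpr4 had 34 reads in VMHpvll and 16 in VMHpvlm. Gpr25, Gpr3, Gpr20, Gpr174, Gpr39, Gpr182, Gpr35, Gpr152, Gpr160, Gpr84, Gpr55, Gpr151, Gpr65, Gpr132, Gpr141, Gpr143 and Gpr142 had between 1 and 34 reads over the 6 libraries. There were 7 members with 0 reads of 54306021, among them Gpr15, Gpr18, Gpr33, Gpr82, Gpr119 and Gpr171, which allows up to 0.0552 RPM (3 reads of the total, counting error only). None of the 15 members listed as receptors of blood, immune cells or vessels reached the filter. All 12 listed microglia markers did, and 0 of them were called by limma.

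The coding sequence of 38 of the 67 members lies in 1 uninterrupted block. This held for 17 of the 39 tested members, 21 of the 28 below the filter and 6 of the 12 called. There were 8 members on the X chromosome, of which Gpr165, Gpr101 and Gpr173 were tested and Gpr173 was called. Exons of 22 members overlap another annotated gene, among them 2 of the called genes, Gpr158 and Gpr173. For Gpr21 (Rabgap1), Gpr75 (Asb3), Gpr63 (Gm11906) and Gpr176 (Gm29232), none of them called, an overlap is on the same strand. There a strand setting cannot separate the genes.

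Related receptors under other names were called in both directions. Of 47 such genes 32 were tested, with 10 calls toward VMHpvlm and 5 toward VMHpvll. Of all tested genes, 10.5% and 9.48% were called in these directions. The median log2 difference was 0.03, beside 0.00247 for all tested genes. The adhesion receptors Adgrl3 (log2 difference 0.35), Adgrl2 (0.41), Adgrb2 (0.36) and Adgrb3 (0.26), which work at synapses, were higher in VMHpvlm, as was Adgrv1 (0.97). Adgrl4 of endothelial cells was higher in VMHpvll (-0.89), where 6 of 12 vascular markers were higher and 0 lower, with summed levels of 2816 to 3065 against 1986 to 2290 and no marker at 0 in any library. The part of vascular cells in the difference of Adgrl4 was not tested. Exons of Adgrl2 and Adgrl3 overlap genes on the opposite strand (Gm43573 and Gm16054). Without the KH_161103 pair 8 of the 32 were called.

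Among 21 measured ligand, partner and trafficking genes, 17 were tested, and 4 were higher in VMHpvlm and 0 in VMHpvll (median -0.01). Besides Psap and Pcsk1n these were Napepld, an enzyme that makes N-acylethanolamines (125 ± 16.7 against 71.6 ± 8.73), and Gpc4, a glypican (76.8 ± 6.70 against 52.5 ± 6.70). The adjusted p of Gpc4 was 0.0357 by limma with all pairs, 0.0721 without F20 and 0.335 without KH_161103. Of 11 G protein alpha subunit genes, through which these receptors signal, 3 were higher in each region and 5 were not called. Of 12 neuron markers 5 were higher in VMHpvlm and 0 in VMHpvll, with summed levels of 85963 to 91977 in VMHpvlm and 81555 to 87086 in VMHpvll. No neuron marker was at 0 in any library, and their part in the differences toward VMHpvlm was not tested.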

How the data were processed

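The submitters' processing notes list HISAT2, featureCounts and mm10, with no versions. The authors deposited a normalised signal per gene, in which each library's counts had been divided by a single scaling factor. This was read from the values: counted in units of 1 read, 100% of the values above 0 came out whole within 0.05 reads. Annotation, scaling tool and strand setting: not given in the sources used here. The recovered reads, 7157831 to 11293159 per library, limit the precision of rare genes.

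Region differences were estimated with limma (version 3.58.1, R 4.3.3) after adding a pseudocount of 1 and taking log2, in a model of region and pair name, with trended and robust eBayes and two-sided p-values. Testing covered 14522 genes whose average was 10 or more. The pair name came from the titles. Deviations from the region means correlated at 0.26, 0.24 and 0.36 between libraries of a name, so the names were taken to pair the libraries. The other correlations were at most 0.01. Deviations within a region sum to 0, which pushes these below 0, so they add no separate support. The model leaves 2 residual degrees of freedom, so each p-value leans on the prior spread estimated from other genes (median prior 39.9 degrees of freedom). Folds are ratios of region means, and differences on the log2(value + 1) scale understate the change of low genes. The limma step was run on simulated counts with a single dispersion for all genes and no pair effect. That run checks the code and cannot show how well the fit suits these data.

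Exon lengths, coordinates and overlaps came from GENCODE M21, which held all 67 members, and promoters from RefSeq. The members, lists and motifs were chosen with earlier results of these data known. Named genes were every called member, the 8 highest by mean, the 3 largest differences per direction, up to 6 called genes by smallest p from each list of related and partner genes, and the 4 highest members below the filter. A part of the rule, on protein identity, was not applied, and other genes were named after their values were seen. Counts cover all members, but the results of some members are not reported here. The alternatives were no pair block, pseudocounts of 0.5 and 5, no filter or a mean of at least 50, equal totals or upper quartiles, eBayes without trend and robust, edgeR 4.0.16 and DESeq2 1.42.0 on recovered reads, and leaving out each pair.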

Additional observations from a re-analysis of the deposited data

How the results depend on the processing

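All 12 called members kept their direction under the 13 alternatives, and Gpr149 and Gpr6 were called under each of them. With eBayes without trend and robust, 1 member was called toward VMHpvlm and 2 toward VMHpvll, with 422 of all genes, 1 related gene and 1 ligand or partner gene. DESeq2 called 3 members toward VMHpvlm and 2 toward VMHpvll, 1230 of all genes and 9 related genes. Without the replicate block, 3 members were called toward VMHpvll, 1800 of all genes and 2 ligand or partner genes, and Gpr22, Gpr37 and Gpr83 lost their call (adjusted p of 0.0717, 0.0730 and 0.0637). edgeR called 2873 of all genes and 13 members, the same 12 and Gpr101. When each pair was left out in turn, 5 to 8 members were called toward VMHpvlm and 3 to 5 toward VMHpvll, with 1776 to 2868 of all genes, 8 to 15 related genes and 3 to 4 ligand or partner genes. The lowest of these counts over all genes came without the KH_161103 pair. The difference of Gpr26, not called, ran from -0.062 (without F19) to 0.023 (without KH_161103) and so changed sign. The causes of these changes were not tested. For members at or below the filter the number of reads is the limit.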
